A study of Mus musculus with 32 samples.

Results

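Transcripts of 9 genes that govern how glucose enters the cell, is trapped there and is metered into glycolysis were followed in primary mouse chondrocytes. The study's results call the cells sternal, and its methods give sterna and ribs as the source. The genes are the glucose transporters Slc2a1, Slc2a3 and Slc2a6, the hexokinases Hk1 and Hk2, the phosphofructokinase regulators Pfkfb2, Pfkfb3 and Pfkfb4, and Txnip, an inhibitor of glucose uptake. They were chosen by name, and all 9 symbols matched an identifier among the 41388 genes in the count tables. The libraries allow the IL-1b response to be compared with and without deletion of the genes for the lactate dehydrogenase LDHA, for NAMPT or for the NF-kB cofactor IkB-zeta (Nfkbiz). RNA was sequenced in 32 libraries, 2 for each of 16 conditions, from unpassaged cultures labelled as strain C57BL/6. Chondrocytes of newborn pups carrying floxed Ldha, Nampt or Nfkbiz alleles (Ldha f/f, Nampt f/f, Nfkbiz f/f) received adenovirus for 24 h, either adeno-GFP or adeno-Cre, and then had IL-1b at 10 ng/mL or none for a further 24 h. The virus acts on any cell it enters, so deletion depended on infection and not on a cell-type promoter, and every floxed library, controls included, carried a virus. Wild-type chondrocytes received no virus and were left untreated or given FX11 (40 µM), an inhibitor of LDHA, IL-1b (10 ng/mL) or both for 24 h.

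Glucose crosses the cell membrane through facilitative carriers of the SLC2 family and is then phosphorylated by a hexokinase, which keeps it in the cell. The bifunctional enzymes of the PFKFB family make and remove fructose 2,6-bisphosphate, the strongest activator of phosphofructokinase 1, and so set the pace of the first committed step of glycolysis. Cartilage has no blood vessels, and chondrocytes live largely on glycolysis. Txnip binds thioredoxin, promotes the removal of GLUT1 from the cell surface, and its own transcription rises with glucose through paired carbohydrate response elements.

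Promoters are shown for the 5 genes that the comparisons turn on. Levels of Slc2a1 and Pfkfb3 correlated over the 24 floxed libraries (Pearson's r = 0.93), and differences between lines enter this value. Pfkfb4 was higher after Cre in Ldha f/f and in Nampt f/f. Slc2a6 had the largest change with IL-1b in the GFP libraries, and Txnip was lower with IL-1b there. Each line holds the 250 bases before a RefSeq transcription start on GRCm38.p6, 5′ to 3′ along the gene, and the RefSeq table held a start for 8 of the 9 genes, Slc2a3 being the other. Capitals mark the hypoxia response core (ACGTG or GCGTG), the E-box CACGTG, the carbohydrate response pair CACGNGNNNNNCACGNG and the kappaB consensus, each searched on both strands. The E-box contains the hypoxia core on both strands, and the carbohydrate pair can overlap either of them.
Slc2a1 (chr4:119108495-119108744, plus strand): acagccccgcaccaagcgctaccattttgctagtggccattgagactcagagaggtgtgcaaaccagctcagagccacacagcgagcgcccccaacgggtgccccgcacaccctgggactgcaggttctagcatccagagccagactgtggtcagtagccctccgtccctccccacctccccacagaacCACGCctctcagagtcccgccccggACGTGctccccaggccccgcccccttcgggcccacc
Slc2a6 (chr2:27027999-27028248, minus strand): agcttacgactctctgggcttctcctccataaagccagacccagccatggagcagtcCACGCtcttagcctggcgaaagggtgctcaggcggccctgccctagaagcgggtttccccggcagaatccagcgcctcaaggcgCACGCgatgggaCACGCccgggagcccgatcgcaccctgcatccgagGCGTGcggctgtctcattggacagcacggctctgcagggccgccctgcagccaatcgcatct
Pfkfb3 (chr2:11502091-11502340, minus strand): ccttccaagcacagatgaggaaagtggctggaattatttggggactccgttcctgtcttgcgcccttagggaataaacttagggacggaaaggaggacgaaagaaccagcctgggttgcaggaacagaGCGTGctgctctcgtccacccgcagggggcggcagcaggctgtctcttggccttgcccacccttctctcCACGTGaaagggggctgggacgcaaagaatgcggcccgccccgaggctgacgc
Pfkfb4 (chr9:108991652-108991901, plus strand): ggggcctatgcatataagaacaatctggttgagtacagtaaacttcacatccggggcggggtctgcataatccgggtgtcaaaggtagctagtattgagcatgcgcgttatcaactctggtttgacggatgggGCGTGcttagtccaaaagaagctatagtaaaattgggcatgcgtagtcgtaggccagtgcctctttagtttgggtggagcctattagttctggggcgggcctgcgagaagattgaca
Txnip (chr3:96557707-96557956, plus strand): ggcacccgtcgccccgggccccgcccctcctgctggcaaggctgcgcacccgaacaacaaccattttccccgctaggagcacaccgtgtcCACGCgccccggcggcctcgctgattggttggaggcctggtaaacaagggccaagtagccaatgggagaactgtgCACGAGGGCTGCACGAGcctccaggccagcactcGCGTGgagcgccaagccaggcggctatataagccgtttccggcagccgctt
Among 32851 promoter windows of this length in the RefSeq table, 38.6% held at least 1 hypoxia core, 6.02% an E-box and 7.25% the kappaB consensus. The carbohydrate pair was in 15 windows (0.0457%), and the Txnip window was 1 of them. Hypoxia cores numbered 2 in the window of Slc2a1, 4 in that of Slc2a6, 3 in that of Pfkfb3, 1 in that of Pfkfb4 and 2 in that of Txnip, with an E-box in the Pfkfb3 window alone among the 5 shown. The table holds another Pfkfb3 window farther upstream (chr2:11553930-11554179, minus strand), with 1 hypoxia core and no E-box, and the window shown is the one that adjoins the annotated start of the gene. The carbohydrate pair was added to the search after these sequences had been read, and a match describes letters, not a bound site.

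Counts summed to between 15830658 and 39959888 per library, and levels are given as CPM, counts scaled to library size with TMM factors. Ldha fell to between 70.5 and 119.8 CPM across the 4 Cre libraries of Ldha f/f, against 876 to 1562 in its GFP libraries, and Nampt fell to between 4.53 and 6.80 CPM in the Cre libraries of Nampt f/f, against 54.7 to 66.7. Nfkbiz reads in Nfkbiz f/f fell less completely, from 16.0 and 16.9 to 9.55 and 8.18 CPM without IL-1b and from 233 and 228 to 29.1 and 32.0 CPM with it. With IL-1b, mean Nfkbiz was also lower with Cre than with GFP in Ldha f/f (67.4 against 169.5 CPM) and Nampt f/f (63.7 against 199.1 CPM). Without IL-1b it was 18.4 against 17.3 CPM and 16.5 against 23.6 CPM in these lines. The part of deletion in the fall with IL-1b was not tested. The stromelysin gene Mmp3, a marker of the IL-1b response, lay in the range 0.358 to 2.77 CPM in the 6 GFP libraries without IL-1b and in the range 828 to 1797 CPM in the 6 with it. All 12 chondrocyte markers reached 1 CPM in at least 1 library of every condition, and their summed level ran from 14701 to 107874 CPM. The 7 fibroblast and perichondrium markers summed to 2748 to 6113 CPM in Ldha f/f, 2411 to 5240.1 in Nampt f/f, 938 to 1389 in Nfkbiz f/f and 4799 to 10211 in wild type. The 6 leukocyte markers summed to 16.6 to 30.9 CPM in Ldha f/f, 13.3 to 26.7 in Nampt f/f and 20.9 to 54.2 in Nfkbiz f/f. In wild type their sum was higher, 85.1 to 226 CPM. Sources do not say whether the 2 libraries of a condition came from separate cultures, so p-values measure the spread between these libraries only. In bulk RNA, fewer cells of a type and less RNA per cell cannot be told apart.

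Set against transcript length, Slc2a1 stood far above the others. In the 6 GFP libraries without IL-1b, Slc2a1 ran from 132 to 182 normalised RPKM (counts per length and library size, TMM-scaled), Txnip from 18.5 to 47.0, Hk2 from 18.1 to 23.0, Hk1 from 13.4 to 19.3 and Pfkfb3 from 9.93 to 17.0. The ranges of Txnip, Hk2, Hk1 and Pfkfb3 overlapped from 1 to the next, so that their order was not resolved beyond the spread. A second tier held Pfkfb4 at 0.929 to 1.54 RPKM, Pfkfb2 at 0.820 to 1.31, Slc2a3 at 0.371 to 0.606 and Slc2a6 at 0.261 to 0.455, and neighbours in this tier overlapped except Pfkfb2 and Slc2a3. Slc2a6 rested on as few as 20 counts in a library, Slc2a3 on 57, Pfkfb2 on 68 and Pfkfb4 on 78, and the other members on at least 641.

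**Figure D1:**
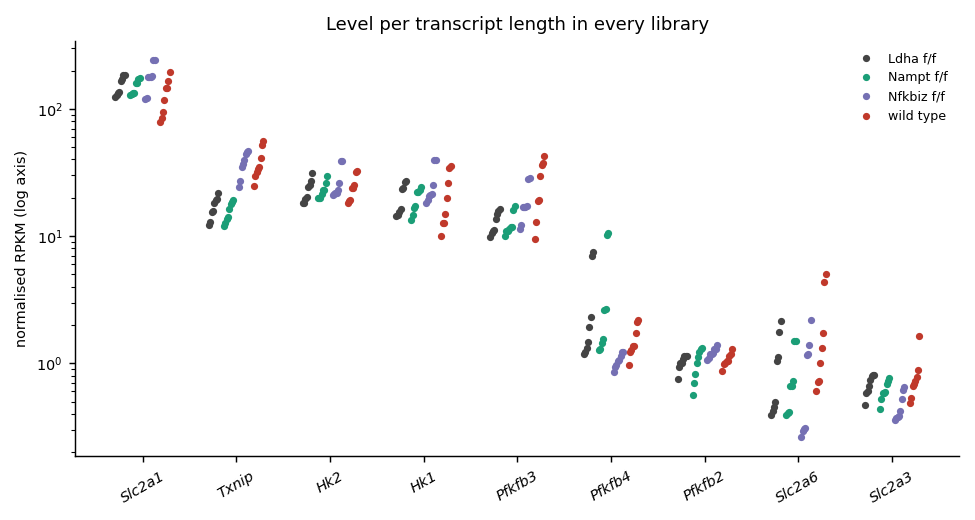
Level per transcript length (normalised RPKM, log axis) of the 9 genes, ordered by their median, with 1 point for each of the 32 libraries and a colour for each line or wild type. Slc2a1 runs from 78.4 to 244 and Slc2a3 from 0.356 to 1.64, and the 4 high Pfkfb4 points of Ldha f/f and Nampt f/f (7.04 to 10.6) are the Cre libraries with IL-1b.

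With IL-1b, most of these genes were higher in the control virus. By edgeR's test over the 12 GFP libraries of the 3 lines, with line and library set in the model, 6 of the 9 genes rose (Slc2a1, Slc2a3, Slc2a6, Hk1, Hk2 and Pfkfb3), 1 fell (Txnip) and 2 were not called (Pfkfb2 and Pfkfb4). Of the 14283 genes tested in this comparison 56.2% were called, the share against which 7 of 9 is read. The median log2 fold change was 0.51 over the 9 genes and -0.00833 over all genes tested. Chondrocyte markers moved in the same libraries, their sum lying at 77986 to 100308 CPM without IL-1b and at 27642 to 35092 CPM with it, and their part in these differences was not tested.

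Among the transporters, Slc2a1 (ENSMUSG00000028645, chromosome 4, 119108711 to 119137330, plus strand) encodes GLUT1, the main basal carrier. Its level ran from 377 to 520.3 CPM with a median of 384 without IL-1b and from 457 to 696 CPM with a median of 527 with it. These ranges overlapped because Nfkbiz f/f started higher, while within each line both IL-1b libraries lay above both without. The log2 fold change was 0.42 (SE 0.039, adjusted p = 8.26e-08), a 1.34-fold rise. By line the counts went from 387 and 378 CPM to 525 and 528 in Ldha f/f, from 377 and 382 to 457 and 457 in Nampt f/f and from 507 and 520.3 to 696 and 694 in Nfkbiz f/f. Slc2a6 (ENSMUSG00000036067, chromosome 2, 27021363 to 27027998, minus strand) encodes GLUT6, a carrier held mostly on internal membranes. It was scarce without IL-1b, from 0.839 to 1.46 CPM with a median of 1.30, and rose to a range from 2.13 to 3.82 CPM with a median of 3.46, with no overlap. At 2.64-fold its log2 fold change of 1.40 (SE 0.19, adjusted p = 1.08e-05) was the largest of the 9 in this comparison. Within Nfkbiz f/f it lay under 1 CPM in both GFP libraries without IL-1b and passed the filter on low values through the groups with IL-1b. Slc2a3 (ENSMUSG00000003153, chromosome 6, 122727809 to 122801640, minus strand), the gene of the high-affinity carrier GLUT3, went from a median of 3.29 to 4.77 CPM with overlapping ranges and a log2 fold change of 0.51 (SE 0.13, adjusted p = 0.00282). No single line called Slc2a3 in edgeR's test, with adjusted p from 0.086 to 0.222, while limma with quality weights called it in Nfkbiz f/f (0.67, adjusted p = 0.0363).

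Both hexokinases rose. Hk1 (ENSMUSG00000037012, chromosome 10, 62268855 to 62379908, minus strand), the housekeeping hexokinase, ran from 114 to 164 CPM with a median of 125 without IL-1b and from 189 to 341 CPM with a median of 228 with it, and the groups did not overlap. Its log2 fold change was 0.92 (SE 0.053, adjusted p = 2.19e-10), 1.90-fold. Hk2 (ENSMUSG00000000628, chromosome 6, 82725025 to 82774454, minus strand), the inducible isoform that can dock on mitochondria, ran from 108 to 137 CPM with a median of 119 without IL-1b and from 156 to 233 CPM with a median of 182 with it, again without overlap. Its log2 fold change was 0.66 (SE 0.048, adjusted p = 3.98e-09). In each line the value for Hk1 exceeded that for Hk2. Its log2 fold change was 0.90 in Ldha f/f, 0.75 in Nampt f/f and 1.11 in Nfkbiz f/f, beside 0.63, 0.55 and 0.82 for Hk2, and the difference between the 2 genes was not tested. The highest hexokinase levels of the floxed lines were those of Nfkbiz f/f with GFP and IL-1b, 341 and 341 CPM for Hk1 and 233 and 231 CPM for Hk2.

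The 3 PFKFB genes differed from one another. Pfkfb3 (ENSMUSG00000026773, chromosome 2, 11471430 to 11502101, minus strand), whose enzyme strongly favours making fructose 2,6-bisphosphate, ran from 69.8 to 119 CPM with a median of 76.9 without IL-1b and from 82.2 to 202 CPM with a median of 110.1 with it, with a log2 fold change of 0.52 (SE 0.065, adjusted p = 3.06e-06). It rose in every line, from 119 and 119 to 198 and 202 CPM in Nfkbiz f/f but only from 76.5 and 69.8 to 82.2 and 83.2 CPM in Nampt f/f. The Nampt f/f call (log2 fold change 0.23 (SE 0.067, adjusted p = 0.0206)) was lost when the set 2 GFP library or the set 2 GFP library with IL-1b was left out (adjusted p = 0.0954 to 0.102). Pfkfb4 (ENSMUSG00000025648, chromosome 9, 108991902 to 109032223, plus strand), an isoform known for its induction by hypoxia, stayed in the range 3.67 to 6.09 CPM without IL-1b and in the range 4.50 to 5.83 CPM with it, with adjusted p = 0.193. Pfkfb2 (ENSMUSG00000026409, chromosome 1, 130689182 to 130729253, minus strand), the isoform best known from heart, lay in the range 5.95 to 9.47 CPM and in the range 4.10 to 9.34 CPM, with a log2 difference of -0.25 (SE 0.11, adjusted p = 0.0672). This difference was called by limma with quality weights (-0.28, adjusted p = 0.0393), with edgeR's own filter on low counts (adjusted p = 0.0473) and without the second Nfkbiz f/f GFP library (adjusted p = 0.0492). Yod1 overlaps Pfkfb2 on the opposite strand and held 114% to 316% as many counts as Pfkfb2, and whether counting used the strand is not given, so the Pfkfb2 values are uncertain. Antisense partners of Slc2a1, Hk1, Hk2 and Txnip held at most 2.10% as many counts as the member, and an unnamed gene inside Slc2a3 on the same strand at most 7.89%.

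Txnip (ENSMUSG00000038393, chromosome 3, 96557957 to 96561883, plus strand) was the 1 member that fell. It ran from 56.1 to 142 CPM with a median of 62.4 without IL-1b and from 38.6 to 111 CPM with a median of 47.4 with it, overlapping because Nfkbiz f/f stood above the other lines in both states. Within lines the 2 states did not overlap. Its log2 fold change of -0.38 (SE 0.040, adjusted p = 5.31e-07) corresponds to a 1.30-fold decrease. Levels went from 66.1 and 58.7 to 48.1 and 46.6 CPM in Ldha f/f, from 57.8 and 56.1 to 43.0 and 38.6 in Nampt f/f and from 138 and 142 to 111 and 106 in Nfkbiz f/f. The Nfkbiz f/f call (log2 fold change -0.35 (SE 0.10, adjusted p = 0.0184)) was lost without any 1 of the 4 GFP libraries of that line (adjusted p = 0.0699 to 0.161).

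Counted line by line, 6 members were called in Ldha f/f (5 higher, 1 lower), 5 in Nampt f/f (4 higher, 1 lower) and 6 in Nfkbiz f/f (5 higher, 1 lower), where 27.9%, 35.0% and 26.8% of all genes tested were called. The Nfkbiz f/f count includes Slc2a6, which passed the filter on low values there only through libraries with IL-1b, and leaves 5 members without it. Slc2a1, Hk1, Hk2, Pfkfb3 and Txnip were called in all 3 lines in 1 direction each. Slc2a6 was called in Ldha f/f (log2 fold change 1.33) and Nfkbiz f/f (2.08) and missed the threshold in Nampt f/f (0.83 (SE 0.30, adjusted p = 0.0523)), where a fit with library set as a replicate block called it (adjusted p = 0.0288). It also passed without either Cre library of that line (adjusted p = 0.0403 to 0.0429). Pfkfb2 in Nampt f/f was called lower with the block (-0.47, adjusted p = 0.0223) and without the set 2 GFP library (adjusted p = 0.0469).

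**Figure D2:**
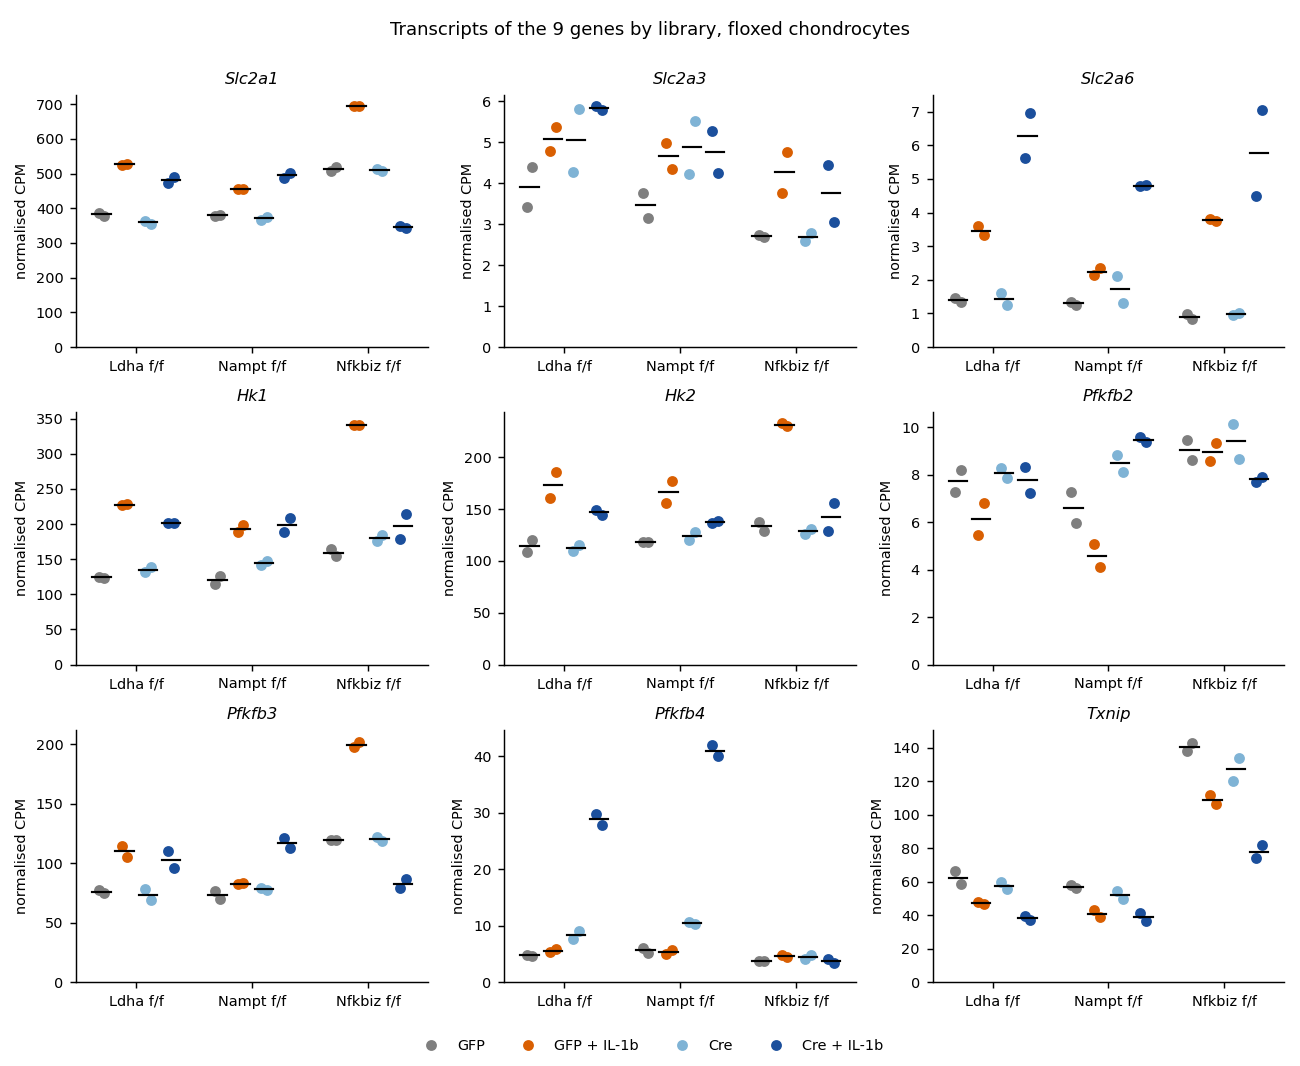
Normalised CPM of each gene in the 24 floxed libraries, with 1 point for each library, a black bar for the mean of 2 libraries, and colours for virus and IL-1b. Pfkfb4 reaches 29.9 and 27.8 CPM in Ldha f/f and 41.9 and 40.1 CPM in Nampt f/f with Cre and IL-1b, and Slc2a1, Hk1, Hk2 and Pfkfb3 are lower with Cre and IL-1b than with GFP and IL-1b in Nfkbiz f/f.

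Without IL-1b, Cre changed few of the 9 genes. In Ldha f/f 1 member was called, where 5.52% of genes tested were, in Nampt f/f 2 members (14.4%), and in Nfkbiz f/f none (0.260%), where no member reached an unadjusted p of 0.05 in edgeR's test and none was called by DESeq2 or by limma either. Pfkfb4 was the call that Ldha f/f and Nampt f/f had in common. It went from 4.86 and 4.68 CPM with GFP to 7.69 and 9.11 CPM with Cre in Ldha f/f, a log2 fold change of 0.80 (SE 0.14, adjusted p = 0.0117). In Nampt f/f it went from 6.09 and 5.16 to 10.6 and 10.3 CPM, 0.88 (SE 0.12, adjusted p = 0.00076). In both lines the Cre libraries lay above the GFP libraries. The Ldha f/f call was lost without the set 1 GFP library or the set 2 Cre library (adjusted p = 0.0609 to 0.087). The Nfkbiz f/f levels were 3.67 and 3.82 CPM with GFP and 4.16 and 4.87 CPM with Cre. Hk1 was also called in Nampt f/f, from 114 and 126 to 142 and 147 CPM (0.27 (SE 0.080, adjusted p = 0.0454)), and lost its call without any 1 of 5 of the 8 libraries, both Cre libraries, both GFP libraries with IL-1b and the set 1 GFP library (adjusted p = 0.0537 to 0.255).

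With IL-1b present, more of the 9 genes were called for Cre in each line than without it, and so were more of all genes tested. Without IL-1b the shares of all genes were 5.52% in Ldha f/f, 14.4% in Nampt f/f and 0.260% in Nfkbiz f/f. The counts with IL-1b follow. Ldha f/f had 3 members called (2 higher, 1 lower), Nampt f/f 5 (4 higher, 1 lower) and Nfkbiz f/f 5 (all lower), beside 34.0%, 48.4% and 17.4% of all genes tested. With library set as a replicate block, which the libraries of Ldha f/f and Nampt f/f follow, the counts were 5 in Ldha f/f and 6 in Nampt f/f, beside 44.8% and 58.3% of genes tested. The added members were Hk1 (-0.14, adjusted p = 0.0401) and Hk2 (-0.20, adjusted p = 0.0164) in Ldha f/f and Slc2a1 (0.12, adjusted p = 0.00558) in Nampt f/f. Hk2 in Ldha f/f was also called without the set 1 GFP library with IL-1b (adjusted p = 0.0359). Mmp3 was also lower with Cre in these libraries, from 875 and 850.1 to 171 and 156 CPM in Ldha f/f, from 867 and 828 to 157 and 146 in Nampt f/f and from 1797 and 1782 to 286 and 271 in Nfkbiz f/f. The chondrocyte marker sum went from 28785 and 28890.0 to 14701 and 16323 CPM in Ldha f/f, from 27642 and 28757 to 15873 and 16768 in Nampt f/f and from 32846 and 35092 to 38597 and 41767 in Nfkbiz f/f, and its part in the differences was not tested.

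Pfkfb4 showed the largest Cre difference of the 9 genes. In Ldha f/f with IL-1b it stood at 5.26 and 5.83 CPM with GFP and at 29.9 and 27.8 CPM with Cre, a log2 fold change of 2.42 (SE 0.14, adjusted p = 1.55e-06) or 5.35-fold. In Nampt f/f it stood at 5.02 and 5.66 CPM with GFP and at 41.9 and 40.1 CPM with Cre, 2.95 (SE 0.12, adjusted p = 2.1e-08) or 7.75-fold. With Nfkbiz f/f it was 4.86 and 4.50 CPM with GFP and 4.11 and 3.35 CPM with Cre, and the difference was not called (adjusted p = 0.349). The 4 Cre libraries with IL-1b of Ldha f/f and Nampt f/f held 27.8 to 41.9 CPM, whereas the 24 libraries other than the Cre libraries of those lines held 3.35 to 8.66 CPM, wild type included. Markers of other cell types moved in the same libraries. Of the 4 endothelial markers, 1 or 2 stayed under 1 CPM in both libraries of each condition with IL-1b. All 4 summed with IL-1b to 4.75 and 5.18 CPM with GFP and 16.3 and 21.1 with Cre in Ldha f/f. In the same order the 4 markers summed to 6.68 and 7.27 and to 22.4 and 26.3 in Nampt f/f. They summed to 3.24 and 4.26 and to 6.61 and 7.65 in Nfkbiz f/f. Without IL-1b their sum was 3.30 and 3.57 CPM with GFP and 10.3 and 11.0 with Cre in Ldha f/f, 3.58 and 4.27 and then 13.9 and 14.0 in Nampt f/f and 3.81 and 4.53 and then 2.36 and 4.66 in Nfkbiz f/f. The fibroblast and perichondrium sum with IL-1b went from 4663 and 4705 to 2748 and 2894 CPM in Ldha f/f and from 4041 and 4053 to 2411 and 2449 in Nampt f/f. The part of these markers in the Pfkfb4 difference was not tested. The rise with Cre was larger with IL-1b than without it in both lines, by 1.61 (SE 0.20, adjusted p = 0.00088) on the log2 scale in Ldha f/f and by 2.07 (SE 0.17, adjusted p = 2.4e-05) in Nampt f/f.

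Slc2a6 followed Pfkfb4 in direction in these 2 lines. With IL-1b it went from 3.60 and 3.33 CPM with GFP to 5.61 and 6.95 CPM with Cre in Ldha f/f (0.89 (SE 0.23, adjusted p = 0.0139)) and from 2.13 and 2.35 to 4.78 and 4.81 CPM in Nampt f/f (1.10 (SE 0.28, adjusted p = 0.00686)). The Ldha f/f call was lost without either GFP library with IL-1b or without the set 2 Cre library with IL-1b (adjusted p = 0.0693 to 0.114), and the Nampt f/f call without the set 1 GFP library with IL-1b (adjusted p = 0.058). In Nfkbiz f/f it was 3.82 and 3.76 CPM with GFP and 4.49 and 7.05 CPM with Cre, a log2 difference of 0.59 (SE 0.27, adjusted p = 0.164), so that both Cre libraries lay above both GFP libraries without passing the threshold. Without the set 1 Cre library with IL-1b that difference was 0.88 and passed it (adjusted p = 0.0442). No line called the Cre by IL-1b interaction for Slc2a6, with adjusted p from 0.159 to 0.652.

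The other PFKFB genes were called in Nampt f/f, and Nampt f/f and Ldha f/f were not tested against each other. Pfkfb3 went from 82.2 and 83.2 CPM with GFP and IL-1b to 121 and 113 CPM with Cre and IL-1b (0.50 (SE 0.067, adjusted p = 0.000108)). In Ldha f/f it was 115 and 105 CPM with GFP and 110.2 and 96.0 CPM with Cre, overlapping, with adjusted p = 0.602. Pfkfb2, with the strand caveat above, went from 5.10 and 4.10 to 9.59 and 9.38 CPM in Nampt f/f (1.04 (SE 0.16, adjusted p = 0.000396)), while Ldha f/f had 5.45 and 6.80 and 8.33 and 7.24 CPM (0.39 (SE 0.17, adjusted p = 0.114)). Hk2 moved the other way in Nampt f/f, from 156 and 177 to 137 and 138 CPM (-0.27 (SE 0.078, adjusted p = 0.014)), and lost its call without the set 1 Cre library with IL-1b or the set 2 GFP library with IL-1b (adjusted p = 0.0514 to 0.13). Txnip was lower with Cre in Ldha f/f, 48.1 and 46.6 against 39.2 and 37.2 CPM (-0.28 (SE 0.081, adjusted p = 0.0253)), a call lost without any 1 of the 4 libraries compared (adjusted p = 0.0632 to 0.0925).

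In Nfkbiz f/f with IL-1b, the main carrier gene, both hexokinase genes, Pfkfb3 and Txnip were lower with Cre. Slc2a1 stood at 696 and 694 CPM with GFP and at 348 and 343 CPM with Cre, 2.03-fold lower (-1.02 (SE 0.093, adjusted p = 9.75e-06)). Pfkfb3 stood at 198 and 202 and 79.4 and 86.4 CPM, 2.43-fold lower (-1.28 (SE 0.090, adjusted p = 1.06e-06)). The Cre values of both genes lay below those of the same line without IL-1b, 512 and 507 CPM for Slc2a1 and 122 and 118 CPM for Pfkfb3. Hk1 stood at 341 and 341 and 179 and 214 CPM (-0.80 (SE 0.10, adjusted p = 0.000158)) and Hk2 at 233 and 231 and 129 and 156 CPM (-0.71 (SE 0.10, adjusted p = 0.00043)). For these 4 genes the GFP and Cre libraries did not overlap. Txnip, the inhibitor, was lower too, at 111 and 106 and 73.8 and 81.6 CPM (-0.50 (SE 0.10, adjusted p = 0.00361)), a call lost without the GFP library with IL-1b numbered 1 (adjusted p = 0.057). The sum of the 3 adipocyte markers moved in these libraries too, from 64.9 and 65.2 to 15.5 and 22.9 CPM. With each virus 2 of the 3 lay under 1 CPM in both libraries, so the sum rested on the remaining marker. The part of this sum was not tested.

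**Figure D3:**
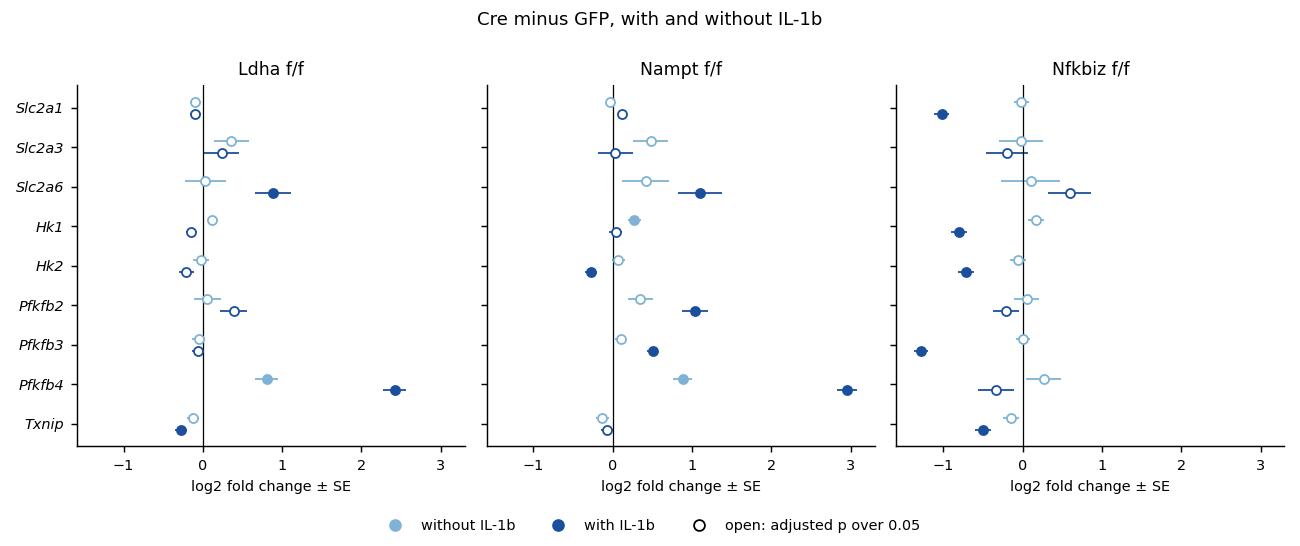
Log2 fold change of Cre against GFP (bars are the standard error) for each gene and line, without IL-1b in light blue and with it in dark blue, where filled points passed an adjusted p of 0.05 in edgeR's test. Pfkfb4 reaches 2.42 in Ldha f/f and 2.95 in Nampt f/f with IL-1b, and Slc2a1, Hk1, Hk2, Pfkfb3 and Txnip are called below 0 in Nfkbiz f/f with IL-1b.

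Whether the IL-1b difference itself depended on the virus was tested as an interaction. It called 1 member in Ldha f/f (Pfkfb4, above), 3 in Nampt f/f and 4 in Nfkbiz f/f, beside 11.5%, 22.0% and 5.19% of genes tested. For Nfkbiz f/f the interaction was -1.28 (SE 0.13, adjusted p = 7.88e-05) for Pfkfb3, -1.00 (SE 0.13, adjusted p = 0.000615) for Slc2a1 and -0.98 (SE 0.14, adjusted p = 0.00147) for Hk1. Hk2 had -0.66 (SE 0.15, adjusted p = 0.0204), lost without any 1 of 5 libraries, the 4 GFP libraries and the Cre library numbered 2 (adjusted p = 0.0666 to 0.129). In Nampt f/f, beside Pfkfb4, the IL-1b difference was larger after Cre for Pfkfb3 (0.40 (SE 0.095, adjusted p = 0.0116)) and smaller for Hk2 (-0.34 (SE 0.11, adjusted p = 0.047)). The Pfkfb3 call was lost without either set 1 library with IL-1b (adjusted p = 0.0719 to 0.0725). The Hk2 call was lost without any 1 of 5 libraries, both Cre libraries with IL-1b, the set 1 GFP library, the set 2 GFP library with IL-1b and the set 2 Cre library (adjusted p = 0.0869 to 0.159). With the replicate block the interaction count rose from 8 of 27 to 12, adding Hk1 in Ldha f/f (adjusted p = 0.0238) and Slc2a1, Hk1 and Pfkfb2 in Nampt f/f (adjusted p = 0.00286 to 0.0202). That made 2 members in Ldha f/f and 6 in Nampt f/f, beside 21.2% and 35.0% of genes tested. Limma with quality weights also called the Pfkfb2 interaction in Nampt f/f (0.70, adjusted p = 0.0496).

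Read from the other side, IL-1b after Cre still moved most members in Ldha f/f and Nampt f/f. This comparison was chosen after the levels had been seen. It called 7 members in Ldha f/f and 7 in Nampt f/f, each with 6 higher and Txnip lower, and 4 in Nfkbiz f/f, 1 higher and 3 lower, beside 35.9%, 43.9% and 22.1% of genes tested. After Cre, Pfkfb4 rose with IL-1b in Ldha f/f (1.85 (SE 0.14, adjusted p = 5.47e-06)) and in Nampt f/f (2.03 (SE 0.11, adjusted p = 1.58e-07)), where after GFP its adjusted p was 0.279 and 0.84. Hk2 went from 109.5 and 116 to 149 and 145 CPM in Ldha f/f (0.45 (SE 0.10, adjusted p = 0.00577)), lost without the set 1 Cre library (adjusted p = 0.0524). In Nampt f/f Hk2 went from 119.9 and 128 to 137 and 138 CPM (0.21 (SE 0.078, adjusted p = 0.0476)) and lost its call without any 1 of 6 of the 8 libraries, all but the set 2 Cre library and the set 2 GFP library with IL-1b (adjusted p = 0.0562 to 0.265).

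After Cre in Nfkbiz f/f, Slc2a1 and Pfkfb3 turned down with IL-1b. Slc2a1 went from 512 and 507 to 348 and 343 CPM (-0.55 (SE 0.092, adjusted p = 0.0013)) and Pfkfb3 from 122 and 118 to 79.4 and 86.4 CPM (-0.52 (SE 0.090, adjusted p = 0.0015)), whereas after GFP both rose, by 0.45 and 0.76 on the log2 scale. Hk1 and Hk2 were not called, with 176 and 184 and then 179 and 214 CPM for Hk1 (adjusted p = 0.361) and 126 and 131 and then 129 and 156 CPM for Hk2 (adjusted p = 0.297). Without the Cre library with IL-1b numbered 1, Hk2 passed the threshold, 0.29 (adjusted p = 0.0321). Slc2a6 rose in the same libraries, from 0.950 and 1.00 to 4.49 and 7.05 CPM (2.57 (SE 0.32, adjusted p = 0.00014)), and was the 1 member called higher there, with levels near the filter on low values without IL-1b. Txnip fell, from 120.1 and 134 to 73.8 and 81.6 CPM (-0.70 (SE 0.10, adjusted p = 0.000364)), as it did after Cre in Ldha f/f (-0.53) and Nampt f/f (-0.36). Txnip was thus called lower with IL-1b in all 6 pairs of line and virus, and its interaction was called in none (adjusted p from 0.198 to 0.754).

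**Figure D4:**
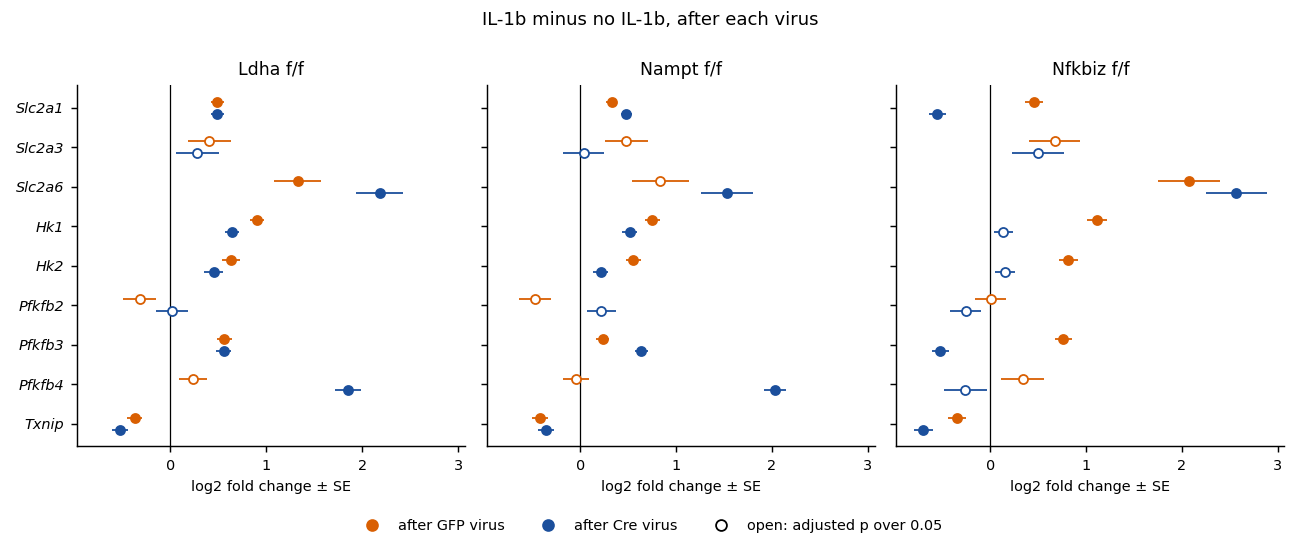
Log2 fold change of IL-1b against none (bars are the standard error) after GFP virus in orange and after Cre virus in blue, by gene and line, where filled points passed an adjusted p of 0.05 in edgeR's test. The Nfkbiz f/f values of Slc2a1 and Pfkfb3 lie above 0 after GFP (0.45 and 0.76) and below 0 after Cre (-0.55 and -0.52), and Txnip lies below 0 throughout.

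Because all lines received Cre, the Cre difference of a line, averaged over both IL-1b states, was also set against the mean of the other 2 lines. This called 1 member for Ldha f/f, 5 for Nampt f/f and 6 for Nfkbiz f/f, beside 4.50%, 20.8% and 31.5% of genes tested. The 3 contrasts share libraries and are not independent of one another. For Ldha f/f the call was Pfkfb4, higher by 0.67 (SE 0.12, adjusted p = 0.0014) on the log2 scale. For Nampt f/f the calls were all higher, 1.11 (SE 0.12, adjusted p = 4.76e-07) for Pfkfb4, 0.63 (SE 0.058, adjusted p = 3.46e-08) for Pfkfb3, 0.60 for Pfkfb2, 0.33 for Slc2a1 and 0.30 for Hk1. For Nfkbiz f/f they were all lower, -1.78 (SE 0.13, adjusted p = 3.87e-10) for Pfkfb4, -0.74 (SE 0.057, adjusted p = 6.84e-10) for Pfkfb3, -0.52 for Pfkfb2, -0.47 for Slc2a1, -0.37 for Hk1 and -0.26 for Hk2. Slc2a3, Slc2a6 and Txnip were called for no line in edgeR's test. The nearest was Txnip for Nfkbiz f/f, -0.15 (SE 0.062, adjusted p = 0.0654), which passed with RLE normalization (adjusted p = 0.0476) and without any 1 of 3 libraries, the set 1 Cre library with IL-1b of Ldha f/f and the Cre libraries numbered 2 of Nfkbiz f/f without and with IL-1b (adjusted p = 0.0152 to 0.042). Without the latter library Hk2 and Txnip also passed for Nampt f/f, 0.17 (adjusted p = 0.0259) and 0.16 (adjusted p = 0.0417). Slc2a1 for Ldha f/f, 0.14 (SE 0.051, adjusted p = 0.146), was called by DESeq2 (adjusted p = 0.0353) and by limma with quality weights (adjusted p = 0.017). These contrasts also move with the Cre differences of the lines they are set against. Within their own line, without and with IL-1b, the Cre differences were 0.26 and -0.33 for Pfkfb4 and 0.052 and -0.21 for Pfkfb2 in Nfkbiz f/f and -0.032 and 0.12 for Slc2a1 in Nampt f/f, none of them called without the replicate block.

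Other genes of the pathway were counted from lists of named genes in the 12-library comparison of IL-1b, where 56.2% of all genes were called. Of 16 glycolytic enzyme genes tested, 11 rose and 2 fell, with a median log2 fold change of 0.40 beside -0.00833 over all genes. The smallest adjusted p among those higher belonged to the pyruvate kinase gene Pkm, 0.90 (adjusted p = 2.89e-11), the phosphoglucose isomerase gene Gpi1, 0.82 (adjusted p = 4.98e-11), and the triosephosphate isomerase gene Tpi1, 0.64 (adjusted p = 3.76e-09), and those lower were the muscle isoforms Eno3, -0.60 (adjusted p = 2.17e-05), and Pfkm, -0.35 (adjusted p = 0.000107). Of 6 other carrier genes of the SLC2 family tested, not all of them carriers of glucose, none rose and 3 fell. These were Slc2a5, which encodes the fructose carrier GLUT5, with -1.82 (adjusted p = 2.43e-10), Slc2a10, with -0.40 (adjusted p = 0.000992), and Slc2a13, with -0.34 (adjusted p = 0.0037). Of 4 other hexokinase and fructose-bisphosphate genes tested, none rose and 2 fell, the gluconeogenic phosphatase gene Fbp1, -1.52 (adjusted p = 6.18e-06), and the ADP-dependent glucokinase gene Adpgk, -0.17 (adjusted p = 0.022). Of 13 genes that handle pyruvate and lactate, 6 rose and 4 fell. Those higher were led by the lactate carrier gene Slc16a3, 1.80 (adjusted p = 7.15e-14), Slc16a1, 1.40 (adjusted p = 2.83e-10), and Ldha, 0.63 (adjusted p = 9.98e-09), and those lower by Ldhb, -0.77 (adjusted p = 9.65e-09), the mitochondrial pyruvate carrier gene Mpc2, -0.64 (adjusted p = 1.09e-07), and Pdk2, -0.69 (adjusted p = 5.24e-06).

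Of 12 genes for thioredoxins, arrestin-domain relatives and glucose sensors, 7 rose and 2 fell with IL-1b in the GFP libraries. Txnrd1, thioredoxin reductase, rose by 1.45 (adjusted p = 7.92e-12), the Txnip relative Arrdc3 by 0.89 (adjusted p = 1.48e-08) and the thioredoxin gene Txn1 by 0.68 (adjusted p = 1.44e-08), while the ubiquitin ligase gene Itch had -0.17 (adjusted p = 0.00265) and the mitochondrial thioredoxin gene Txn2 -0.12 (adjusted p = 0.0134). Of 11 regulators of glycolytic genes, 7 rose and 1 fell, with Epas1, which encodes HIF-2 alpha, at 2.39 (adjusted p = 3.56e-14), the prolyl hydroxylase genes Egln1 and Egln3 at 1.06 (adjusted p = 4.71e-11) and 2.13 (adjusted p = 1.25e-10), and the AMPK subunit gene Prkaa2 at -0.31 (adjusted p = 0.00029). With Cre and IL-1b, 17.4% of all genes were called in Nfkbiz f/f, 34.0% in Ldha f/f and 48.4% in Nampt f/f, and the lines were not tested against each other on these lists. In Nfkbiz f/f 11 of 16 glycolytic enzyme genes fell and 2 rose (median -0.54, beside -0.00867 over all genes), with 5 fallen and 3 risen in Ldha f/f and 5 of each in Nampt f/f. Of the 12 Txnip partners and sensors 4 fell and none rose in Nfkbiz f/f, 9 rose and 2 fell in Nampt f/f and 4 rose and 2 fell in Ldha f/f. Those that fell in Nfkbiz f/f, named after their values were seen, were Arrdc4, -1.16 (adjusted p = 0.000196), Arrdc3, -1.33 (adjusted p = 4.86e-06), Txnrd1, -0.92 (adjusted p = 3.93e-05), and Txn1, -0.62 (adjusted p = 0.00697).

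For the Cre difference of Ldha f/f against the other lines, Ldha itself had -3.41 (adjusted p = 3.74e-21), and few listed genes were called beside it, where 4.50% of all genes were. The platelet phosphofructokinase gene Pfkp was higher, 0.32 (adjusted p = 0.0027), as were Slc16a3, 0.22 (adjusted p = 0.0148), and Egln3, 0.73 (adjusted p = 0.000679), and Prkaa2 was lower, -0.33 (adjusted p = 0.033).

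Likeness of pattern was taken as Pearson's r of log2 normalised CPM over the 24 floxed libraries, which share 12 conditions of 2, and is a description only. Among 16727 genes, the 3 most like Slc2a1 were Pfkfb3 (r = 0.93), Ppp2cb (r = 0.90), Pgk1 (r = 0.90), so that the closest gene of all to GLUT1 was another member. Differences between lines enter this r. With GFP and no IL-1b, mean Slc2a1 was 514 CPM in Nfkbiz f/f, 382 in Ldha f/f and 379 in Nampt f/f. Pfkfb3 was 119, 75.9 and 73.1 CPM in the same order. The 3 most like Slc2a6 were Bid (r = 0.94), Kcnj2 (r = 0.93), Traf3 (r = 0.93). The 3 most like Txnip were Lamtor1 (r = 0.98), Aga (r = 0.97), Ergic3 (r = 0.97), and the higher Txnip level of Nfkbiz f/f in every condition enters these values. Within the 9 genes the highest r were 0.93 for Slc2a1 with Pfkfb3 and 0.93 for Hk1 with Hk2, and the lowest -0.77 for Txnip with Slc2a3 and -0.66 for Txnip with Pfkfb4. Differences between lines enter these values as well.

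In wild-type chondrocytes 2 libraries went against their labels. Mmp3 stood at 1.08 and 0.805 CPM in the untreated libraries of sets 1 and 2 and at 9293 CPM in the set 1 IL-1b library, but at 0.790 CPM in the set 2 library labelled IL-1b and at 2033 CPM in the set 2 library labelled FX11, against 1.21 CPM in the set 1 library labelled FX11. Il6, Lcn2 and Saa3 were likewise low in the former and high in the latter. No member was called in any of the 4 comparisons by edgeR, DESeq2 or limma, none had an unadjusted p of 0.05 or less in edgeR's test, and 0.00% of all genes tested were called in each. Leaving out both libraries, an alternative chosen after their values were seen, called none either, but it leaves 1 library labelled IL-1b and 1 labelled FX11, assumed to vary like the other groups.

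Within set 2 most members were higher in the library with high Mmp3. Slc2a1 had 333 and 224 CPM in the untreated libraries, 240.1 and 476 in those labelled FX11, 556 and 269 in those labelled IL-1b and 417 and 415 in those labelled with both, in each case set 1 first. Hk1 had 109 and 126, 85.8 and 293, 305 and 109 and 223 and 169 CPM in the same order. The set 2 library labelled FX11 was higher than the set 2 library labelled IL-1b for Slc2a1, Slc2a3, Slc2a6, Hk1, Hk2, Pfkfb2, Pfkfb3 and Pfkfb4, and lower for Txnip, 126 against 171 CPM. Within set 1 alone, where no label was in doubt, 1 library of each condition allowed no test. There Slc2a1 went from 333 CPM untreated to 556 with IL-1b, Slc2a6 from 3.25 to 16.1, Pfkfb3 from 90.9 to 297 and Txnip from 74.9 to 97.4. Txnip in wild type was therefore not lower with IL-1b in set 1, unlike in the GFP libraries of the floxed lines. With FX11 beside IL-1b the set 1 values were 417 CPM for Slc2a1, 14.1 for Slc2a6, 266 for Pfkfb3, 6.84 for Pfkfb4 and 103 for Txnip. Pfkfb4 in the 8 wild-type libraries ran from 3.84 to 8.66 CPM. Markers of other cell types varied among these libraries. Their sums ran from 24.4 to 326 CPM for skeletal muscle, 19.5 to 390 for adipocytes and 2.41 to 41.9 for red cells. In the floxed lines these sums reached at most 48.4, 65.2 and 4.70 CPM. The 2 untreated wild-type libraries held 19.5 and 326 CPM of adipocyte markers. The part of these markers in the wild-type values was not tested.

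**Figure D5:**
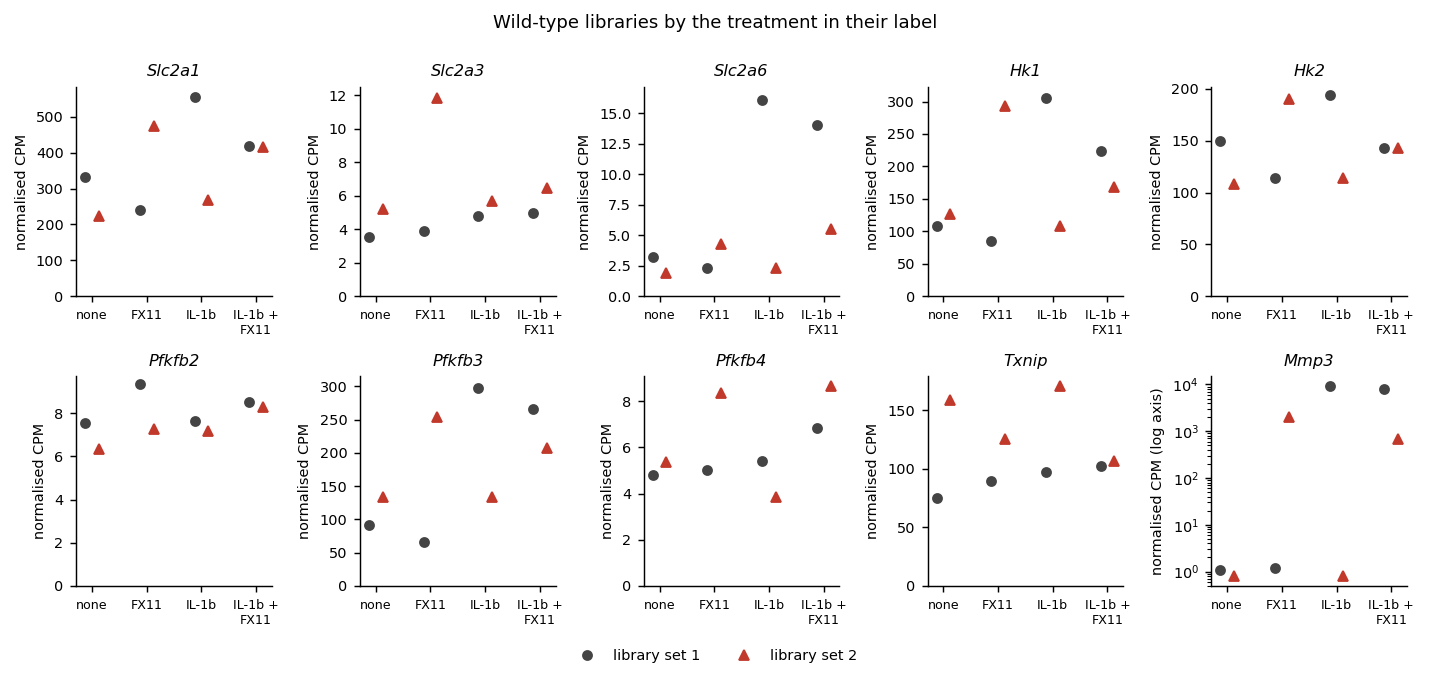
Normalised CPM of the 9 genes and of Mmp3 (log axis) in the 8 wild-type libraries, placed by the treatment in their label, with circles for library set 1 and triangles for set 2. In set 2 the library labelled FX11 has Mmp3 at 2033 CPM and Hk1 at 293 CPM, and the library labelled IL-1b has 0.790 and 109 CPM.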

How the data were processed

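RNA depleted of ribosomal RNA was sequenced in 32 libraries. The authors aligned reads to the Ensembl release 76 mouse genome (GRCm38) with STAR and counted unique, unambiguous reads with featureCounts. The deposited counts are not normalized, and the deposited CPM and RPKM, which the authors computed from those counts, entered no test. Libraries were grouped by their labels.

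Counts were fitted with edgeR 4.0.16 (quasi-likelihood test, TMM, two-sided) under R 4.3.3, with limma 3.58.1 and DESeq2 1.42.0 as alternatives. Genes over 1 CPM in at least 1 library of a line (5 in the 12-library comparison) were tested, excluding 355 genes for ribosomal RNA. Calls required a Benjamini-Hochberg adjusted p of at most 0.05 over all genes tested. Each line was fitted over its 8 libraries by group means, with library set left out. Contrasts between lines were fitted over 24 libraries with library set as a covariate. The fits were tested on simulated data. Symbols and coordinates came from GENCODE M21, which named 40340 of 41388 identifiers. Python 3.11.15 with pandas 2.3.3 and matplotlib 3.10.9 made the tables and plots.

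Titles number the libraries in 2 sets of 12 and 20. The 2 libraries of a condition came 1 from each set in Ldha f/f, Nampt f/f and wild type, and both from set 2 in Nfkbiz f/f. Deviations from the group means correlated between libraries of the same set by 0.41 to 0.65 in Ldha f/f and by 0.44 to 0.57 in Nampt f/f, so these pairs were taken as real. The main fits within these 2 lines nonetheless left the pairs out. A replicate block was run as an alternative and added calls in both lines. In Nfkbiz f/f the numbers correlated by -0.35 to 0.13 and in wild type by -0.24 to 0.73.

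The members, lists and named-gene rule were chosen with earlier results of these data known. Named were the 9 members, the 3 deleted genes, up to 3 called genes per list and direction with the smallest adjusted p, the 3 genes most like Slc2a1, Slc2a6 and Txnip, and 4 IL-1b check genes. Alternatives were another test, normalization or filter, a replicate block, other libraries or covariates, and each library left out.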

Additional observations from a re-analysis of the deposited data

Results flagged for a closer look

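The IL-1b difference differed between the Cre and GFP virus for 8 pairs of the 9 members and 3 lines, by edgeR's interaction term. The pairs were 1 in Ldha f/f, 3 in Nampt f/f and 4 in Nfkbiz f/f, beside 11.5%, 22.0% and 5.19% of all genes tested. The IL-1b difference is taken up by member below. It was larger after Cre for Pfkfb4 in Ldha f/f (1.61 on the log2 scale) and Nampt f/f (2.07) and for Pfkfb3 in Nampt f/f (0.40). It was smaller after Cre for Hk2 in Nampt f/f (-0.34) and, in Nfkbiz f/f, for Hk1 (-0.98) and Hk2 (-0.66). For Slc2a1 (-1.00) and Pfkfb3 (-1.28) in Nfkbiz f/f it changed sign. The 2 genes had 0.45 and 0.76 after GFP and -0.55 and -0.52 after Cre.

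The Cre difference of a line differed from the mean of the other lines for 12 pairs of the 9 members and 3 lines. These were 1 in Ldha f/f, 5 in Nampt f/f and 6 in Nfkbiz f/f, beside 4.50%, 20.8% and 31.5% of all genes tested. The pair in Ldha f/f was Pfkfb4 (0.67). In Nampt f/f they were Slc2a1 (0.33), Hk1 (0.30), Pfkfb2 (0.60), Pfkfb3 (0.63) and Pfkfb4 (1.11). In Nfkbiz f/f they were Slc2a1 (-0.47), Hk1 (-0.37), Hk2 (-0.26), Pfkfb2 (-0.52), Pfkfb3 (-0.74) and Pfkfb4 (-1.78). The Cre differences of Pfkfb4 and Pfkfb2 in Nfkbiz f/f and of Slc2a1 in Nampt f/f were not called within their own line without the replicate block. No member held a single library far from the others in the 36 sets of 6 libraries examined, which pooled the 3 lines by virus and IL-1b. Differences between the lines widen these sets, so the check could miss an outlying library. The wild-type libraries were not in these sets.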

How the results depend on the processing

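Every count of called members, taken over the 3 lines together, stayed within 1.5 times its value under the alternatives run. No direction changed among the differences compared, beyond those under 0.2 counted at the end. Counts of single lines moved further with a replicate block, from 3 to 5 for Cre with IL-1b in Ldha f/f. For the interaction they went from 1 to 2 in Ldha f/f and from 3 to 6 in Nampt f/f. With a replicate block the count was 7 of 9 for IL-1b over the GFP libraries, 19 of 27 within lines (from 17), 3 for Cre without IL-1b, 16 for Cre with IL-1b (from 13) and 12 for the interaction (from 8). The block added Slc2a6 and Pfkfb2 with IL-1b in Nampt f/f, where Pfkfb2 had -0.47 (adjusted p = 0.0223). It also added, for Cre with IL-1b, Hk1 and Hk2 in Ldha f/f, -0.14 (adjusted p = 0.0401) and -0.20 (adjusted p = 0.0164), and Slc2a1 in Nampt f/f, 0.12 (adjusted p = 0.00558), and it lost no call. With 1 library left out the counts ran from 7 to 8 for IL-1b over the GFP libraries, 16 to 18 within lines, 2 to 3 and 11 to 14 for Cre without and with IL-1b, 6 to 8 for the interaction, 17 to 19 for IL-1b after Cre and 12 to 15 for a line against the others.

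Other settings removed 7 of 463 values of called differences, all with adjusted p above 0.05 in the same direction: Txnip with wild type added to the IL-1b comparison, -0.23 (adjusted p = 0.205), which brings in the set 2 library labelled IL-1b, Pfkfb3 with IL-1b in Nampt f/f without a filter, 0.20 (adjusted p = 0.0965), Hk2 with IL-1b after Cre in Nampt f/f under 3 settings and its interaction under 2. They added calls in 16 of 259 values of differences not called, 9 of them with the block. The other 7, all in the same direction, were Pfkfb2 with IL-1b over the GFP libraries under 2 settings, Slc2a3 with IL-1b in Nfkbiz f/f, the Pfkfb2 interaction in Nampt f/f and, for a line against the others, Slc2a1 for Ldha f/f under 2 settings and Txnip for Nfkbiz f/f. Leaving out 1 library added a call in 9 of 460 such values and removed one in 43 of 844. A further 48 differences under 0.2 were called by no setting that kept every library. Of their 809 alternative values 60 had the other sign and 3, each with 1 library left out, passed the threshold. The cause of these changes was not tested. Library set 2 alone was not run. With 2 libraries per condition and few counts, Slc2a6, Slc2a3 and Pfkfb2 are the least certain.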
